A study of Homo sapiens with 3 samples.

Results

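The gene-rich short-arm band 19p13 was examined for HMGA1 binding in DAMI cells, a leukaemic line whose labels give the disease state as MPN/AML (myeloproliferative neoplasm and acute myeloid leukaemia). Its members were all rows of both deposited peak lists on chromosome 19 with a summit within the first 19.8 Mb of hg19, a rule that uses position and no measured value. In the H3 list, where the HMGA1 library was set against a histone H3 ChIP, 479 of 263033 peaks met the rule. In the input list, where the same HMGA1 library was set against input DNA made without antibody, 817 of 385953 peaks did. There was 1 library each for HMGA1 ChIP, H3 ChIP and input DNA, all from this single cell line, so there is no replicate error and no test between conditions. Intervals cover counting error only. Both lists rest on the same HMGA1 reads, and agreement between them is not replication.

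HMGA1 is an architectural chromatin protein whose AT hooks bind the minor groove of AT-rich DNA. It has no enzyme activity and acts by bending DNA and by helping or hindering the assembly of other factors. Histone H3 is part of every nucleosome, so its ChIP follows nucleosomal DNA. Input DNA reports the share of each region in the sonicated material. The band is known for closely packed, GC-rich genes, among them CALR, which is mutated in myeloproliferative neoplasms, the kinase genes JAK3 and TYK2, the erythropoietin receptor gene EPOR, and the blood transcription factor genes KLF1 and LYL1. RefSeq on GRCh38.p14 lists 1451 protein-coding genes for chromosome 19 as a whole, which ranks 2 by number among the autosomes of the table used. The 300-base RefSeq promoter windows of chromosome 19 had a median GC content of 62.7%, which ranks 3 among the 21 autosomes with promoters given there, against a median of 58.7% over all of them. That annotation is on another build than the peaks. No peak was therefore assigned to a gene, and no sequence under a peak was read.

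HMGA1 peaks were few on 19p13. The band held 24.2 peaks per Mb in the H3 list, against 90.9 per Mb on the autosomes, and 41.3 per Mb in the input list, against 132.4 on the autosomes. These densities are 0.266 and 0.312 times the autosomal ones. The peaks covered 136.9 kb in the H3 list and 245.6 kb in the input list, which is 0.691% and 1.24% of the band, against 3.12% and 4.83% of the autosomes. Neighbouring summits were a median of 19176.5 bp apart over H3 and 13069 bp over input, against 4143 bp and 3215 bp on the autosomes.

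The sparseness was greater on 19p13 than on the remainder of its own chromosome. From 19800001 to the last peak, chromosome 19 had 45.0 peaks per Mb over H3 and 71.3 over input, and the density of 19p13 was 0.537 and 0.579 times these. Chromosome 22, another GC-rich chromosome, had 15.5 peaks per Mb over H3 and 30.0 over input when its peak-free stretches are counted. With peak-free stretches of at least 1 Mb left out, 19p13 had 24.2 and 41.3 peaks per Mb, and chromosome 22 had 22.6 and 43.7. The band itself holds no such stretch. On that length 19p13 thus lay above chromosome 22 in the H3 list and below it in the input list, by small differences that have no replicate check.

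The peaks that were called on 19p13 were not weak. The fold is the authors' enrichment of HMGA1 over the control at the summit, and the HMGA1 reads at a summit were worked back from that fold and its p-value. The median fold was 5.49 (quartiles 4.55 and 6.48) over H3 on 19p13, against 5.25 (4.29 and 6.48) on the autosomes. Over input it was 5.01 (3.97 and 6.35) on 19p13, against 4.50 (3.70 and 5.82). The median summit on 19p13 held 24 HMGA1 reads over H3 and 20 over input, against 23 and 19 on the autosomes. These values describe only sites that were called as peaks. The lowest called peaks held 12 reads (H3 list) and 9 reads (input list) on 19p13, against 11 and 8 on the autosomes. Widths were a little smaller, with medians of 249 bp and 265 bp on 19p13 against 284 bp and 298 bp on the autosomes.

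High folds were about as common among the peaks of 19p13 as elsewhere. A fold of at least 8 was reached by 39 of the 479 H3-list peaks of the band (8.14%, Wilson 95% interval 6.01 to 10.9), against 10.1% of the whole H3 list. It was reached by 66 of the 817 input-list peaks (8.08%, 6.40 to 10.1), against 7.23% of the whole input list. Both backgrounds lie within the intervals. Per Mb such peaks were as scarce as peaks in general: 1.97 over H3 and 3.33 over input on 19p13, against 9.21 and 9.68 on the autosomes. When each list was limited to its 20000 peaks of highest q, 35 (H3) and 42 (input) lay on the band, and its density there was 0.255 and 0.306 times that of the autosomes. Broad peaks were rare. Only 1 H3-list peak and 2 input-list peaks of the band were 1000 bp or wider (0.209% and 0.245%), against 1.42% and 2% of the whole lists.

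The control at a peak has a genome-wide floor, below which the fold cannot see differences. This floor was 2.19 reads for H3 and 2.78 for input, each in the units of its own list. Control levels given as reads are in these units and need not be whole reads. The input control exceeded its floor at 298 of the 817 input-list peaks of 19p13 (36.5%, 95% interval 33.2 to 39.8), against 63.6% of the whole input list. The H3 control exceeded its floor at 259 of the 479 H3-list peaks of the band (54.1%, 49.6 to 58.5), against 57.1% of the whole H3 list. These shares mix 3 segments of raised control, described below, with the rest of the band. Outside the segments, which were chosen by their controls, H3 was at its floor at 219 of 330 H3-list peaks (66.4%). Input was at its floor there at 513 of 621 input-list peaks (82.6%). Over input the share was lower still on chromosome 22, at 29.6% (27.3 to 31.9), and was 68.9% (67.1 to 70.5) on the remainder of chromosome 19. Over H3 it was 35.9% (32.7 to 39.3) and 80.1% (78.2 to 81.9). Per Mb, peaks with the control above its floor came to 13.1 over H3 and 15.1 over input on 19p13, against 52.1 and 85.1 on the autosomes. Peaks with the control at its floor came to 11.1 and 26.2 on 19p13, against 38.8 and 47.3. In the input list the band was thus further below the autosomes for the raised kind. On the remainder of chromosome 19, peaks of the raised kind came to 36.1 (H3) and 49.1 (input) per Mb, and those at the floor to 8.95 and 22.2. The density of 19p13 was thus below that of this remainder for the raised kind only, and above it for peaks at the floor.

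With the control fixed at its floor, the fold depends on HMGA1 reads alone. In that subset the median summit held 23 reads over H3 and 18 over input on 19p13, against 21 and 16 on the autosomes, and the median folds were 5.99 and 5.02, against 5.50 and 4.50. Peaks with 13 reads or fewer were the most depleted, and the ratio did not rise evenly with height. Input-list peaks at the floor with 13 reads or fewer came to 3.33 per Mb on 19p13 and 12 on the autosomes, a ratio of 0.279. The ratio was 0.576 for 14 to 15 reads, 0.541 for 16 to 17 reads, 0.709 for 18 to 24 reads and 0.749 for 25 to 34 reads. It was 0.558 for the 14 band peaks with 35 reads or more. In the H3 list it was 0.0593 for 13 reads or fewer (1 band peak), 0.192 for 16 to 17 reads, 0.385 for 25 to 34 reads and 0.206 for 35 reads or more (11 band peaks).

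Along the arm, all 40 bins of 500 kb had a peak in both lists, but few bins were full. A bin held a median of 10 peaks over H3 (range 1 to 38) and 17 over input (5 to 50), against 34 and 55 for the median of 5750 autosomal bins. In the H3 list 2 bins of 19p13 exceeded the autosomal median, and in the input list none did. At the low end, 23 of the 40 bins had 10 H3-list peaks or fewer, whereas 16% of the autosomal bins did, and 6.31% of the autosomal bins had no peak at all. The fullest input-list bin of the band, with 50 peaks, ranked above 44.9% of the autosomal bins.

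**Figure D1:**
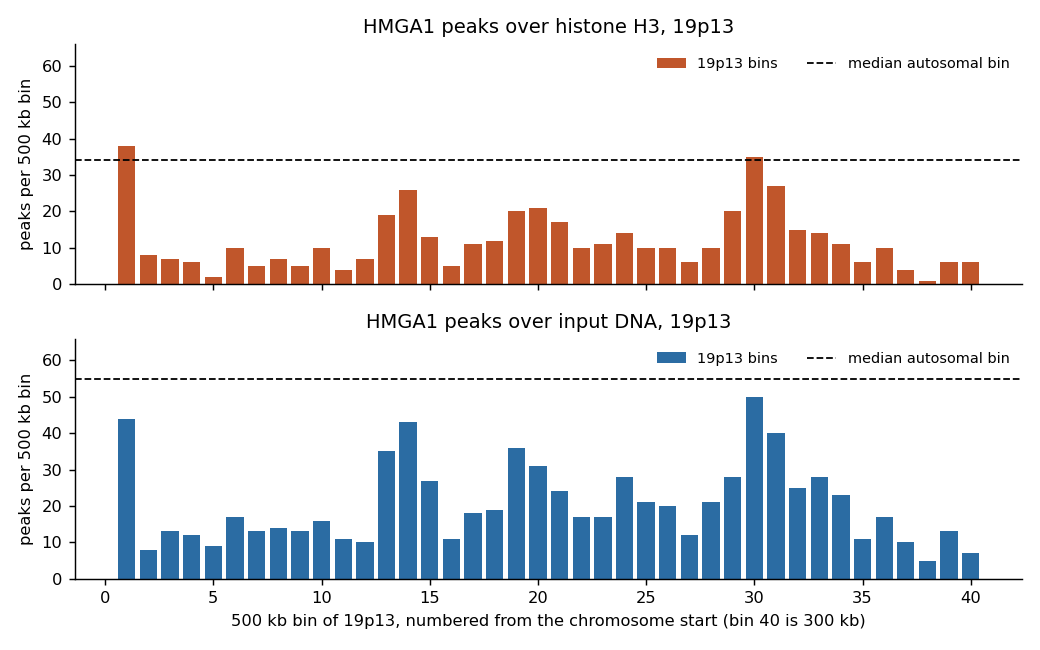
Number of HMGA1 peaks in each of the 40 bins of 500 kb along 19p13 (the last bin is 300 kb), over H3 above and over input below; the dashed line is the median autosomal bin. Bins 1 and 30 are the only ones above the line in the H3 list (38 and 35 peaks, line at 34), and no bin reaches it in the input list (highest 50, line at 55).

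**Figure D2:**
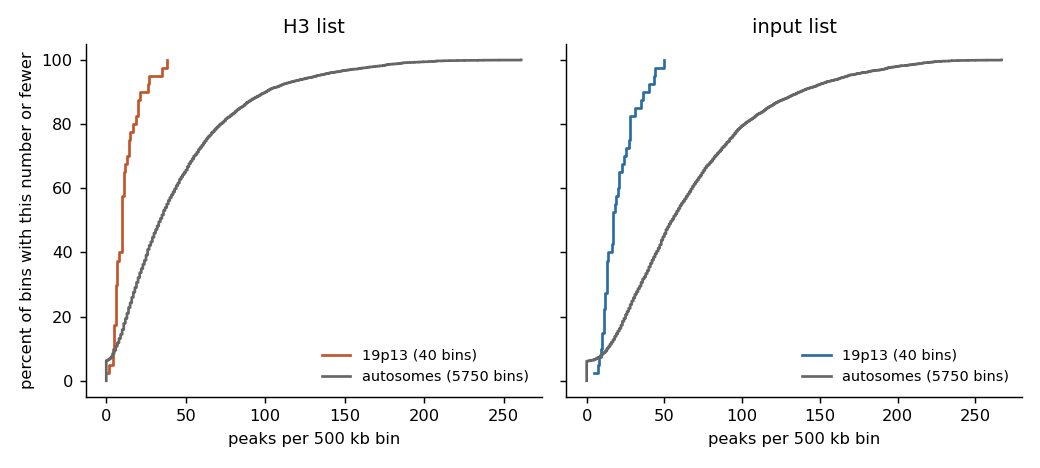
Percent of 500 kb bins (vertical axis) that hold a given number of peaks or fewer (horizontal axis), for 19p13 in colour and all autosomes in grey, H3 list left and input list right. The curves of 19p13 end at 38 and 50 peaks, whereas autosomal bins reach 261 and 267.

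The 5 fullest bins held 147 of the 479 H3-list peaks of the band (30.7%, 26.7 to 35) and 213 of the 817 input-list peaks (26.1%, 23.2 to 29.2). These bins were chosen by the same counts, and the intervals do not cover that choice. Over H3 the fullest was the first bin of the chromosome with 38 peaks, followed by the bins from 14500001 (35), 15000001 (27), 6500001 (26) and 9500001 (21). Over input the bin from 14500001 led with 50 peaks, followed by the first bin (44) and those from 6500001 (43), 15000001 (40) and 9000001 (36). At the other extreme, the bin from 18500001 held 1 peak over H3 and 5 over input. The bin from 2000001 held 2 over H3 and 9 over input, and the bin from 500001 held 8 in each list.

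Long thin stretches joined these low bins. The 5.5 Mb from 500001 to 6000000 held 71 H3-list and 136 input-list peaks, or 12.9 and 24.7 per Mb. The 2.8 Mb from 17000001 to the end of the band held 33 and 63, or 11.8 and 22.5 per Mb. Within them the called peaks kept ordinary folds, with medians of 5.50 (H3) and 5.02 (input) in the first stretch and 5.69 and 4.76 in the second. The longest peak-free interval over H3 ran from 18487779 to 18865722, a length of 377.9 kb, and over input the longest ran from 363639 to 669471, 305.8 kb. The interval from 4901776 to 5197544 was free of peaks in both lists (295.8 kb over input). Others over H3 ran from 352015 to 669540, from 2102895 to 2402611 and from 4206313 to 4467382. Over input they ran from 2163231 to 2402129, from 18512242 to 18742641 and from 5795889 to 5986346.

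A fuller stretch with the control at its floor ran from 6000001 to 7500000. It held 58 H3-list peaks (38.7 per Mb) and 105 input-list peaks (70.0 per Mb), and the controls were at their floors at 41 and 84 of them. Its median folds were 5.49 over H3 and 4.76 over input, within 0.3 of those of the whole band, and 7 and 11 of its peaks reached a fold of 8. The bin from 9000001 to 9500000 was of the same kind, with 20 H3-list and 36 input-list peaks and the control at its floor at 13 and 25 of them. Both stretches were denser than the band as a whole, and the median summit from 6000001 to 7500000 held 22 reads over H3 and 18 over input, against 24 and 20 on the whole band.

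The highest single peak of 19p13 lay from 14859703 to 14861264 (input list), 1562 bp wide. Its summit at 14860445 held 72 HMGA1 reads over an input level of 3.81 reads, a 15.2-fold enrichment that ranked 157 of the whole input list by fold. In the H3 list the same summit was 13.3-fold over an H3 level of 3.33, rank 657. It led the band by fold and by q-value in both lists.

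The next sites were also shared between the lists. The peak from 10214137 to 10214509 was 10.3-fold over H3 and 13.6-fold over input with 59 reads. The one from 182662 to 183443 was 12.7-fold over H3 and 12.8-fold over input with 63 reads. At 10598357 a summit of 64 reads was 7.99-fold over H3 and 11.1-fold over input, and at 15040734 a summit of 64 reads was 9.86-fold and 9.30-fold. The narrower peak from 856894 to 857223 differed between its controls: it was 5.94-fold over H3, where the H3 level was 5 reads, and 11.9-fold over input, where the input was at its floor, with 44 HMGA1 reads in both. Summits at 14177886 (9.01-fold over H3, 11.3-fold over input, 50 reads) and at 14327070 (10.3-fold over input, 46 reads) were the other leading sites between 14 and 15 Mb. By q-value, summits at 183837 (61 reads, 8.16-fold over H3 and 9.55-fold over input) and at 15180142 (62 reads, 8.72-fold over input) were also among the leaders.

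Of the 10 highest-fold peaks over H3, 5 lay within the first 200 kb of the chromosome, with summits at 87372 (11.5-fold), 108223 (10.6-fold), 134436 (10.9-fold), 181173 (11.2-fold) and 183279. Over input, the summit at 183284 was the only one of the first 200 kb among the 10 of highest fold. The peaks at 87372, 108223, 134432 and 181173 were 10.1-fold, 9.78-fold, 9.65-fold and 6.78-fold there. Outside the fuller stretches, some of the leading peaks stood over a control at its floor. Those with summits at 3570501 and 18487612 each had 39 reads and were 9.94-fold over H3, and the same 2 sites were 10.6-fold over input. A peak from 16894277 to 16894704 was also 10.6-fold over an input at its floor. Over H3 that site was 5.28-fold, where the H3 level was 5 reads. The other wide peaks were from 180071 to 181415 (1345 bp, H3 list), from 8123004 to 8124216 (1213 bp, input list, 24 reads), from 6845362 to 6846346 (985 bp, 37 reads), from 9031357 to 9032347 (991 bp, 20 reads) and from 9249472 to 9250450 (979 bp, 26 reads). Over H3 the peaks from 9234919 (962 bp, 30 reads) and from 15293245 (960 bp, 34 reads) were among the 5 widest.

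The first peak of the chromosome had its summit at 85608 in both lists, and the peaks after it were the closest-set of the band. From 1 to 200000 there were 32 peaks in each list, 160.0 per Mb, whereas the following 300 kb held 6 over H3 and 12 over input. All 3 of the tightest runs of 5 peaks lay here in both lists. Over H3 they spanned 7142 bp from 103054, 7450 bp from 123538 and 7857 bp from 181173. Over input the tightest spanned 4401 bp from 123536, and the other two overlapped it. A fold of at least 8 was reached by 10 of these H3-list peaks and 7 of these input-list peaks. The first 500 kb of chromosome 19, with 38 H3-list and 44 input-list peaks, ranked 4 and 6 among the first bins of the 22 autosomes. The 16 other autosomes with peaks in their first bin had medians of 18.5 over H3 and 30.5 over input, with ranges of 3 to 78 and 6 to 96.

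Control levels were raised over 3 segments of 19p13. They were found as runs of at least 10 neighbouring peaks with the control above its floor, joined where runs of the 2 lists overlapped, so their control levels are what chose them. The longest runs were 77 peaks over H3 and 107 over input, in the segment from 14140657 to 15294119. There the median control was 1.88 times its floor for H3 and 1.60 times for input. The second segment, from 9635964 to 10640301, had 1.39 and 1.26 times, and the segment from 85608 to 222159 had 1.40 and 1.57 times. In the 10 peaks before and the 10 after each segment (the segment at the chromosome start has none before it), the median control was at most 1.01 times its floor in either list. Runs of this kind were not counted outside the band. Peaks with a raised control made up 57.1% (H3) and 63.6% (input) of the whole lists, and 80.1% and 68.9% on the remainder of chromosome 19. Whether such segments are particular to 19p13 was thus not tested.

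**Figure D3:**
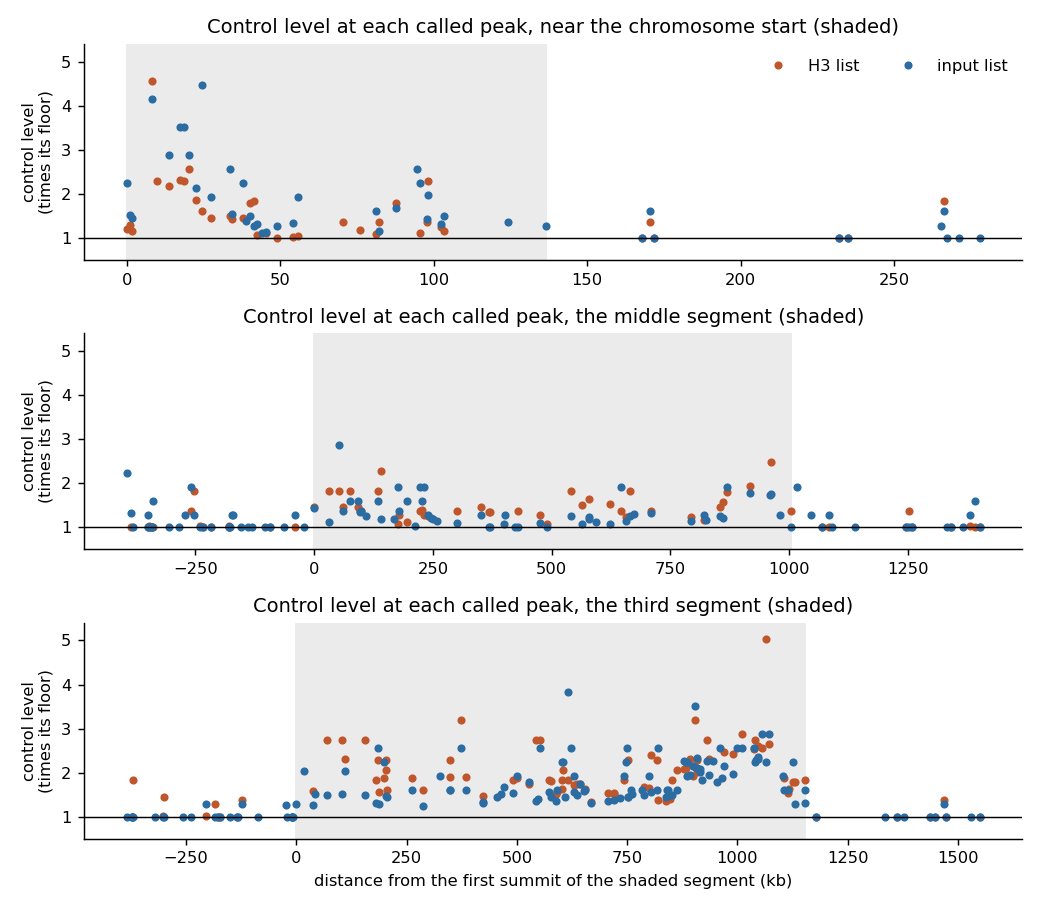
Control level at each called peak as a multiple of its floor (vertical axis) against distance in kb from the first summit of the segment (horizontal axis), for the 3 shaded segments of 19p13; orange points are H3-list and blue points input-list peaks. In the lowest panel both controls leave the floor line near 0 kb and return to it at the right edge, and the highest point is an H3 level of 5.03 times the floor.

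The edges of the largest segment are set by its definition, since a run of raised peaks ends at the next floor-level peak. The distances there are thus spacings of neighbouring peaks. Over input the last floor-level peak before it had its summit at 14132274 and the first peak inside at 14140657. Over H3 these were at 14131594 and 14177886. At its far end the last raised summit was at 15294119 and the next, at 15317766, was at the floor in both lists. Inside, the control was not even. From 15000001 to 15200000 it was 2.37 times its floor for H3 and 2.24 times for input, against 1.54 and 1.53 times in the preceding 200 kb. The highest H3 level of the band, 11.0 reads at 15205035, stood over 51 HMGA1 reads and gave a 3.43-fold peak over H3, whereas the same summit was 7.20-fold over an input level of 6.22 reads.

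Median HMGA1 reads were higher in all 3 segments than in the 17.5 Mb of the band outside them, whereas median folds differed in either direction. In the segment from 14140657 the median summit held 33 reads over H3 and 29 over input, against 23 and 18 outside the segments. The median folds were 5.33 and 4.81 in this segment, against 5.50 and 5.02 outside. In the segment from 9635964 the medians were 26.5 and 23 reads and 5.30-fold and 5.54-fold. In the segment at the chromosome start they were 28 reads in each list, with 5.69-fold over H3 and 4.57-fold over input. More reads are needed for a call where the control is higher, and how far this goes with the read numbers was not tested. Peaks were most numerous per Mb near the chromosome start, at 234.3 over H3 and 249.0 over input. Segment lengths end at their own outer summits, which raises such densities. Over the fixed first 200 kb the density was 160.0 per Mb in each list. For the band, peaks were also numerous in the segment from 14140657, at 66.8 per Mb over H3 and 92.8 over input. Outside the segments there were 18.9 and 35.5 per Mb, and the autosomes had more than this segment, at 90.9 and 132.4. The segment from 9635964 had 39.8 and 54.8 per Mb. Without the 3 segments the density of 19p13 was 0.207 (H3) and 0.268 (input) times that of the autosomes. Nothing was left out of the autosomes for this, and removing stretches denser than the band lowers the ratio by construction. The cause of the raised controls was not tested.

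**Figure D4:**
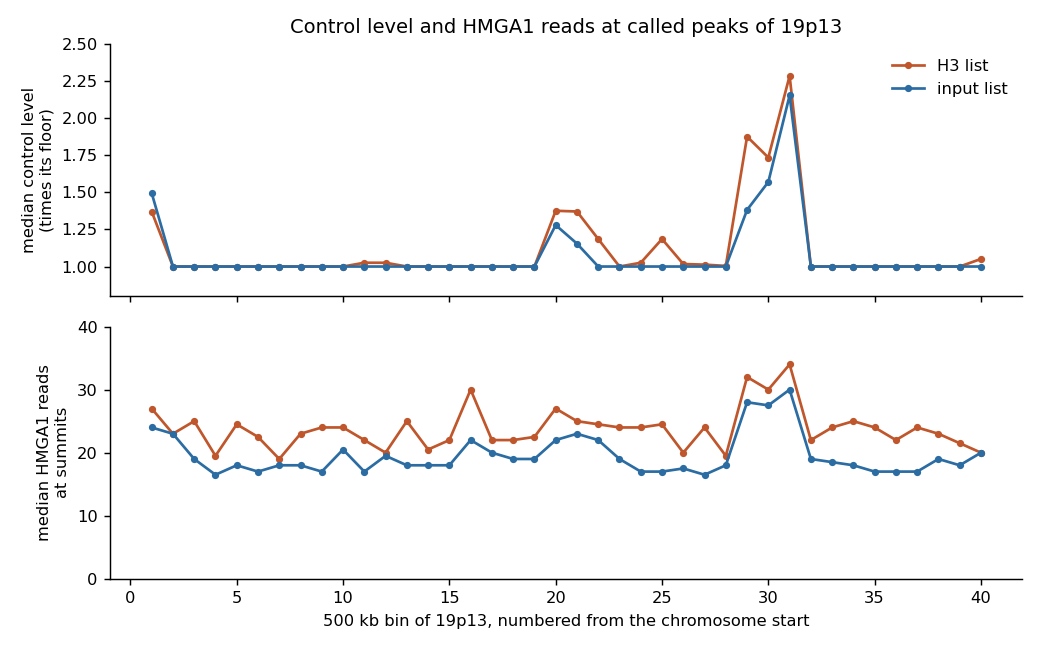
Median control level at called peaks as a multiple of its floor (upper panel) and median HMGA1 reads at their summits (lower panel) in each 500 kb bin of 19p13, for the H3 list in orange and the input list in blue. Bins 29 to 31 have the highest H3 controls (1.88, 1.73 and 2.28 times the floor), with input at 1.38, 1.57 and 2.15 times and medians of 32, 30.0 and 34 reads in the H3 list.

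The highest single input level of the band, 12.5 reads, was near the chromosome start at 110194, where 52 HMGA1 reads gave a 3.94-fold peak over input and a 9.24-fold peak over an H3 level of 3.53. At 93807 both controls were high, with 10.0 reads for H3 and 11.6 for input, and the folds were 4.1 and 4.54 with 56 HMGA1 reads. At 104141 the most HMGA1 reads of this segment, 69, gave 9.21-fold over H3 and 6.49-fold over input. Of the 14 summits at the same base in both lists in this segment, the input control was the higher relative to its floor at 9. In the 2 larger segments this held at 6 of 19 (from 9635964) and 15 of 37 (from 14140657).

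Nearly all H3-list peaks of the band recurred in the input list, but many input-list peaks did not recur over H3. With at least 1 bp shared, 474 of 479 H3-list peaks of 19p13 overlapped an input-list peak (99.0%, 97.6 to 99.6), against 98.3% of the whole H3 list. In the other direction 467 of the 817 input-list peaks had an H3-list counterpart (57.2%, 53.7 to 60.5), against 65.8% of the whole input list. The 350 input-list peaks of the band without one were lower, at a median of 15 reads and 3.97-fold, against 24 reads and 6.01-fold for the 467 with one. Of the 5 H3-list peaks without a counterpart, 3 had summits in the first 200 kb (95351, 155912 and 161582), and the others were at 12216213 and 15256815.

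The lower recurrence over H3 held among peaks of like height. Input-list peaks of 19p13 with 14 to 15 HMGA1 reads recurred in 4.92% of cases (6 of 122, 95% interval 2.27 to 10.3), against 25.3% (24.9 to 25.7) on the autosomes without 19p13. For 16 to 17 reads the shares were 28.4% (20.6 to 37.8) and 51.0% (50.6 to 51.4). For 18 to 20 reads they were 60.0% (52.0 to 67.5) and 79.3% (79.0 to 79.6), and for 21 to 24 reads 83.3% (76.2 to 88.6) and 93.8% (93.6 to 94.0). For 25 reads or more the shares were 96.6% (93.4 to 98.3) and 98.5% (98.5 to 98.6). In these 5 height classes the intervals of 19p13 lie below those of the autosomes, so the differences exceed counting error. That error takes peaks as independent, although they come from the same libraries. For 13 reads or fewer the shares were 2.78% (0.765 to 9.57) and 6.33% (6.12 to 6.54), and these intervals overlap.

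**Figure D5:**
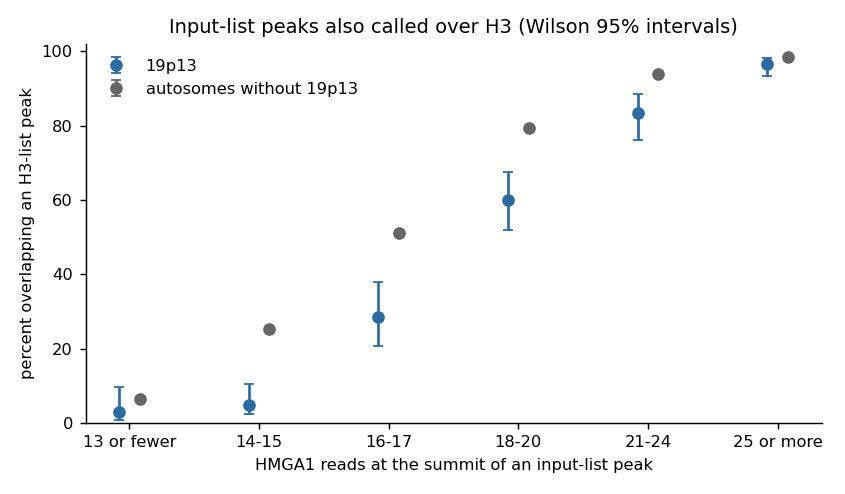
Percent of input-list peaks that overlap an H3-list peak (vertical axis) by HMGA1 reads at the peak's summit (horizontal axis), for 19p13 in blue and the autosomes without 19p13 in grey; bars are Wilson 95% intervals. The points of 19p13 lie below the grey ones in every class, by the most at 16 to 17 reads (28.4% and 51.0%).

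Where the input was at its floor, the shares of 19p13 were again lower for peaks of 14 to 24 reads. In that subset 3.16% (1.08 to 8.88) of the 14-to-15-read peaks of 19p13 recurred over H3, against 20.4% (19.8 to 20.9) on the other autosomal sequence, and 65.4% (55.8 to 73.8) against 83.6% (83.1 to 84.1) at 18 to 20 reads. At 25 reads or more all 99 recurred, against 99.8% on the other autosomal sequence. The remainder of chromosome 19 and chromosome 22 lay between, with 15% (10.4 to 21.2) and 11.0% (7.51 to 15.9) at 14 to 15 reads. Against these 2 references the separation depended on the height class. In the floor subset the interval of the remainder of chromosome 19 lies above that of 19p13 at 14 to 15 reads and overlaps it at 16 to 24 reads, and that of chromosome 22 overlaps it in each of these classes. Over all input-list peaks of 21 to 24 reads, 83.3% (76.2 to 88.6) recurred on 19p13, against 94.9% (91.1 to 97.1) on chromosome 22, and these intervals do not overlap. On the remainder of chromosome 19 it was 86.8% (83.4 to 89.6), which overlaps that of 19p13. In every other class over all input-list peaks the chromosome 22 interval overlaps that of 19p13. That of the remainder of chromosome 19 does so in all but 14 to 15 reads (18.2%, 14.5 to 22.6).

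At summits called in both lists, the controls stood differently on 19p13. A common summit, at an identical position in each list, was found 228 times on the band, and its recovered reads were equal in all 228. Such summits exist only where both lists called a peak. The 350 input-list peaks of the band without an H3-list counterpart are thus not among them, and their H3 level is not known. H3 was above its floor while input was at its floor at 38 of them (16.7%, 12.4 to 22), against 7.54% (7.39 to 7.69) at the autosomal common summits. The reverse, input above and H3 at the floor, was seen at 18 (7.89%, 5.05 to 12.1), against 22.5% (22.2 to 22.7). At a stricter limit, with one control more than 1.5 times the other relative to their floors, H3 was the higher at 12 (5.26%, 3.04 to 8.97), against 4.14% on the autosomes, which lies within the interval. By that limit input was the higher at 15 (6.58%, 4.03 to 10.6), against 11.8% on the autosomes, which lies above it. Median folds at these summits were 5.74 over H3 and 6.11 over input on 19p13, against 5.50 and 5.55 on the autosomes. The HMGA1 reads were multiplied by 0.787 in the H3 list, so the control is not the only thing that sets the 2 folds apart.

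The 3 nearest peaks on either side of the position that ends the band were of like height. This does not hold for the longer stretch beyond it, from 19800001 to 24000000. Its median summits held 19 reads over H3 and 16 over input, against 24 and 20 on 19p13. The last 3 peaks inside it had summits at 19716253, 19798177 and 19799898 over H3, with 23, 20 and 18 reads. The first 3 beyond had summits at 19806365, 19884806 and 19903468, with 21, 19 and 15 reads. Over input the last inside were at 19782926, 19798193 and 19799893 (18, 20 and 18 reads) and the first beyond at 19806370, 19810331 and 19884805 (21, 14 and 19 reads).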

How the data were processed

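ChIP-seq was made from sonicated nuclei of DAMI cells, with 1 library each for HMGA1, H3 and input DNA. Peaks were called with MACS2 on hg19, per the submitters' processing notes. For its version, the aligner and any filters on reads or peaks, nothing is given in the sources used here. Peak names start with other letters than HMGA1, and the ChIP library was identified through the lists' own names. The deposited lists give each peak a whole-number score, a fold (the ratio of HMGA1 over control at its summit), and −log10 values of p-value and q-value. Total reads are unknown.

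Reads at summits were recovered by seeking the whole HMGA1 pileup whose Poisson tail gave the deposited −log10 p-value within 0.001, with the fold taken as pileup plus 1 over control plus 1. All 263033 and all 385953 peaks fitted. In the H3 list the pileup is multiplied by 0.787, a factor fitted on 400 peaks. The procedure was tested on simulated data. Overlap means at least 1 bp, intervals are Wilson 95%, and lengths run to the last base covered by a peak. The text names, per list, the 10 peaks of highest fold, the 10 of highest q, the 5 widest, the 5 fullest bins, the 5 longest peak-free intervals and the 3 tightest runs of 5 peaks. Other stretches and peaks, the 3 segments and the height classes were chosen after their values were seen. The members and lists were chosen with earlier results of these data known. An hg19 genome or annotation was not used here, so planned promoter, AT content and gene list comparisons were not run. Alternatives were stricter thresholds, other limits of the band, other bins, other definitions of overlap and other comparison sets. Coordinates are 1-based on hg19. Python 3.11.15 was used with matplotlib 3.10.9, scipy 1.17.1, pandas 2.3.3 and numpy 2.4.6.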

Additional observations from a re-analysis of the deposited data

How the results depend on the processing

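No paired analysis was possible because HMGA1, H3 and input have 1 library each, and for the same reason no replicate could be left out. Of 90 alternative values, 57 stayed within their counting interval or within 1.5 times for counts, and 33 moved. In every alternative of the density, 19p13 stayed sparser than the autosomes or the rest of chromosome 19. Values below are for the H3 list and then the input list. At a minimum −log10 q-value of 5 the density over the autosomes was 0.293 and 0.347, the median fold 5.74 and 5.48, the input-list median pileup 22 reads, and 63.5% of input-list peaks overlapped the H3 list. With a fold of at least 4 the median fold was 5.74 and 5.55, the input-list density 0.357 and pileup 22 reads, and the overlaps 96.0% and 67.3%. With each list limited to its 20000 peaks of highest q the band held 35 and 42 peaks, with median folds of 9.20 and 9.78, pileups of 46.0 and 43.5 reads, overlaps of 85.7% and 69.0%, 68.6% and 61.9% of peaks in the 5 fullest bins, and 24 and 21 bins without a peak. The H3-list overlap was 93.3% where each peak had to share 50% of its length and 96.9% where summits had to lie within 200 bp. Without the 3 segments, chosen after seeing the data and left out of the band only, the density was 0.207 and 0.268 and the input-list pileup 18 reads. Against the rest of chromosome 19 it was 0.537 and 0.579, and 0.488 and 0.532 without peak-free stretches of 1 Mb, also added later. Stricter thresholds raise folds and reads by construction, and leaving out the denser segments lowers the density by construction. The cause of the other changes was not tested. Total reads are unknown, so the depth at which weaker sites would be called on the band cannot be given.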

Other observations

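Just beyond the band the density of peaks was far higher. From 19800001 to 24000000 chromosome 19 held 254 H3-list peaks (60.5 per Mb) and 530 input-list peaks (126.2 per Mb), against 24.2 and 41.3 per Mb on 19p13. These peaks were lower, with medians of 19 reads over H3 and 16 over input, against 24 and 20 on 19p13, and median folds of 5 and 4.23, against 5.49 and 5.01. The controls were at their floors at 83.9% and 80.6% of them, against 45.9% and 63.5% on 19p13.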
